A study of Mus musculus with 13 samples.

Results

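The 10 genes described here encode endoplasmic reticulum (ER) chaperones and other products of the unfolded protein response: Hspa5, Hsp90b1, Pdia4, Dnajb9, Xbp1, Sdf2l1, Calr, Creld2, Manf and Edem1. They were taken by name, as known targets of the transcription factors XBP1 and ATF6, from a liver count table of 53465 genes, in which each symbol matched 1 Ensembl identifier. All 10 passed the filter on low counts, as did 13545 genes in all. Liver RNA came from 13 male BALB/c mice, 6 wild-type (WT) and 7 Nod2-/-, which lack the bacterial peptidoglycan sensor Nod2 in every cell. Mice of both genotypes had received the skin carcinogen DMBA as pups and then a high fat diet (HFD) for 30 weeks by the labels, or slightly longer by the published methods, so neither a chow-fed nor an untreated liver is part of the comparison. The labels give 30 weeks as the age, and they give cancer as the disease state of every sample. WT and Nod2-/- mice were bred separately rather than as littermates, and the tumor content of the sampled liver is not given for each mouse. A mouse is named here by its genotype and replicate number.

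The ER folds the proteins that a cell secretes or places in its membranes, and hepatocytes secrete most plasma proteins. When unfolded proteins accumulate, sensors of several kinds in the ER membrane respond. IRE1 splices Xbp1 mRNA so that it encodes the active factor XBP1s, ATF6 is cut in the Golgi to release a transcription factor, and PERK slows translation and favours that of Atf4. XBP1s and ATF6 then raise chaperones, folding enzymes and the degradation machinery of the ER, while ATF4 raises genes of amino acid supply and stress. In liver this response also follows feeding, and it is known for its links with lipid metabolism in obesity.

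XBP1s and ATF6 are known to act through short promoter elements, of which the ER stress element (ERSE), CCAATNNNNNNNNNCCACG, is the best known. The letters were searched on both strands in RefSeq promoter windows of GRCm38.p6, each from 250 bases before to 50 bases after an annotated start. A window was found for 9 of the 10 genes and not for Manf. ERSE stood in 4 of these 9 windows, those of Hspa5, Hsp90b1, Calr and Creld2, against 39 of 32851 promoters of all genes (0.119%). The 250 bases before the start of these 4 genes are printed 5′ to 3′ on the strand of the gene because they carry the element that the group is known for, with each match in capitals. A match that begins with CGTGG lies on the opposite strand. The sequences cover chr2:34771840-34772089 (plus strand) for Hspa5, chr10:86705445-86705694 (minus strand) for Hsp90b1, chr8:84846932-84847181 (minus strand) for Calr and chr15:88819396-88819645 (plus strand) for Creld2.
Hspa5: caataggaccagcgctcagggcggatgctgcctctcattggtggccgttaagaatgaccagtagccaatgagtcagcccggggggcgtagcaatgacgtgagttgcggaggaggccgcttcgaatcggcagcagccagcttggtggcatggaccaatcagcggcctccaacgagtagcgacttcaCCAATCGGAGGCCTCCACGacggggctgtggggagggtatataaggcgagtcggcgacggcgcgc
Hsp90b1: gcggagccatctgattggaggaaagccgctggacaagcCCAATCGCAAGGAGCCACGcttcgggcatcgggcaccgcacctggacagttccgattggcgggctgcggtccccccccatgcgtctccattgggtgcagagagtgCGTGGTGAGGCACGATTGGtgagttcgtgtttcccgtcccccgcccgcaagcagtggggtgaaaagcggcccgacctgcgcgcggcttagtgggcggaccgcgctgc
Calr: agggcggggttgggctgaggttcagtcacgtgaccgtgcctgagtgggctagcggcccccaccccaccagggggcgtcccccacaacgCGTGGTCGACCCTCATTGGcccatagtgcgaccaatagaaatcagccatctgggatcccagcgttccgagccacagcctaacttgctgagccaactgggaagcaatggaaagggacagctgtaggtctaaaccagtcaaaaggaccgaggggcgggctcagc
Creld2: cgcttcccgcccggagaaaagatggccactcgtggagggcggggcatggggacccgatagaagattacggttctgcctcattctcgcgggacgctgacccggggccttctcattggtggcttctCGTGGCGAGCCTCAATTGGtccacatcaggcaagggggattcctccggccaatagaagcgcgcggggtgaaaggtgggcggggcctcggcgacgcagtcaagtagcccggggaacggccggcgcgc

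Hsp90b1 was the only one of these windows with a pair of matches, 1 on each strand, beginning 212 and 107 bases before the start. The single matches began 65 bases before the start in Hspa5, 162 in Calr and 126 in Creld2. The windows of Pdia4, Dnajb9, Xbp1, Sdf2l1 and Edem1 held no exact match. The related elements ERSE-II, ATTGGNCCACG, and UPRE, TGACGTGG, stood in 0.0365% and 0.676% of all promoters and in none of the 9 windows. As ERSE was the only element found in these windows, no overlap between different elements was possible. Among other genes of ER folding and export, a window was found for 84 of 102, and ERSE stood in 5 of them, those of Canx, Derl3, Dnajc3, Pdia6 and Syvn1. ERSE-II stood in the windows of Herpud1 and Dnajb11. These are matches of letters, not measured binding.

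The deposited values are whole numbers of reads per gene and mouse, and the libraries held between 13824780 and 20579984 counts. Normalized counts are counts divided by the TMM-scaled library size and brought to the mean library size. Markers of hepatocytes were abundant in every liver (summed 95143 to 195971 CPM for 10 of 10 listed genes, where CPM are counts scaled to a library of 1000000). Of 10 markers of pancreas acinar cells, a cell type very rich in ER chaperones, 9 had at most 3 counts in every library and 3 had none in any. Nod2 itself had 0 to 4 counts in WT and 1 to 6 in Nod2-/- mice, which was too few to check the genotype labels. Nod2-/- mouse 7 stood apart: its 10 neutrophil markers summed to 1001 CPM, against 4.17 to 9.53 in WT and 6.06 to 41.7 in the other Nod2-/- mice. In bulk tissue, fewer cells of a type and less RNA per cell cannot be told apart.

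Compared per length, as CPM per kilobase of annotated exons, the major lumenal chaperones were the most abundant of the 10 genes. Over the 13 mice Hsp90b1 averaged 255 CPM per kilobase (range 163 to 378), Calr 250.1 (162 to 321) and Hspa5 201 (91.4 to 301). Hsp90b1 lay above Calr in 9 of 13 mice and Calr above Hspa5 in 11 of 13, so the order of these 3 was not the same in every liver. Xbp1 at 95.03 and Pdia4 at 94.8 CPM per kilobase followed, with Hspa5 above Xbp1 in 13 of 13 mice and Xbp1 above Pdia4 in 6 of 13. Creld2 averaged 39.9, with Pdia4 above it in every mouse. Edem1 (26.1), Sdf2l1 (26.0), Manf (25.5) and Dnajb9 (24.9) had nearly equal levels per length, and each neighbouring pair in that order ranked either way in 6 or 7 of 13 mice. The spread between mice differed more than these levels did: Edem1 ranged from 22.2 to 29.5 CPM per kilobase and Dnajb9 from 16.1 to 46.1. Exon lengths join all annotated transcripts of a gene and may exceed the form made in liver.

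The main comparison asked whether the ER chaperone program of DMBA + HFD liver differs with Nod2. At 5% false discovery rate (FDR), 0 of the 10 genes differed between genotypes in edgeR's quasi-likelihood fit (p adjusted by Benjamini-Hochberg), against 157 of 13545 genes tested (1.16%). The count was also 0 by DESeq2 (8.52% of all genes called), by limma voom with quality weights (6.22% called) and in each of the other 21 fits tried. At an unadjusted p under 0.05, 1 of the 10, Creld2, was lower in Nod2-/- mice by edgeR, against 10.2% of all genes. Fitted log2 fold changes, Nod2-/- minus WT, were below 0 for 10 of 10 genes, against 47.7% of all genes, and their median was -0.16, against 0.016 over all genes tested. The genes rise and fall together between mice, as shown further on, so the 10 directions are not separate observations. The genotypes separated for 0 of the 10, which is near the share of all genes whose normalized counts did not overlap (1.44%).

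Among the lumenal chaperones, Hspa5 (ENSMUSG00000026864.13, chr2:34771970-34777547) encodes BiP, the Hsp70 of the ER, which also holds the stress sensors inactive. It had 9920.4, 14790 and 21135 normalized counts as the lowest, median and highest of the 6 WT mice, and 6407, 13826.5 and 19814 in the 7 Nod2-/- mice. The groups overlapped over most of their range, with Nod2-/- mice 7 and 3 below every WT mouse. The means were 15494 ± 3903 (SD, n = 6) and 12922 ± 4482 (SD, n = 7). The log2 fold change was -0.26 (SE 0.24, 95% interval -0.77 to 0.24, edgeR adjusted p = 0.523), so neither a fall to 0.587-fold nor a rise to 1.18-fold lay outside the interval.

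Hsp90b1 (ENSMUSG00000020048.13, chr10:86690209-86705509) encodes GRP94, the Hsp90 of the ER. WT mice had from 16029.8 to 25242 normalized counts (median 17287) and Nod2-/- mice from 10917 to 21580.3 (median 15109). In 5 of the 7 Nod2-/- mice the value lay below every WT mouse, while Nod2-/- mice 1 and 2 lay above 5 of the 6. Its log2 fold change was -0.25 (SE 0.17, edgeR adjusted p = 0.369). Its exons share 415 of 4032 bases with a transcribed pseudogene on the opposite strand, and strand use in the authors' counting is not given.

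Calr (ENSMUSG00000003814.8, chr8:84841850-84846934) encodes calreticulin, a calcium-binding lectin that retains immature glycoproteins. It had 10747 to 15309 normalized counts in WT (median 12325) and 7735 to 13816 in Nod2-/- mice (median 11836). Only mice 7 and 3 of the Nod2-/- group fell below the WT range, and the log2 fold change was -0.14 (SE 0.13, edgeR adjusted p = 0.545). Calr lies 3.80 Mb from Nod2 on chromosome 8, so an effect of the deletion on this gene and one of linked strain sequence cannot be told apart. Pdia4 (ENSMUSG00000025823.9, chr6:47796141-47813430) encodes the disulfide isomerase ERp72. Its normalized counts were 2989 to 4915 in WT (median 3988) and 2439 to 4490.3 in Nod2-/- mice (median 3593). All Nod2-/- mice but mouse 7 lay inside the WT range, and the log2 fold change was -0.16 (SE 0.15, edgeR adjusted p = 0.535).

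Among the co-chaperones, Dnajb9 (ENSMUSG00000014905.4, chr12:44205559-44210326) encodes ERdj4, a J protein that drives the ATP cycle of BiP. It had 757 to 1950.4 normalized counts in WT (median 1061) and 682 to 1274 in Nod2-/- mice (median 1031). WT mouse 4 stood far above all others, and the next WT mouse had 1104. The log2 fold change was -0.17 (SE 0.21, edgeR adjusted p = 0.654), and it was 0.061 without WT mouse 4 (adjusted p = 0.864). Sdf2l1 (ENSMUSG00000022769.7, chr16:17130138-17132383) encodes a partner of ER J proteins. Its normalized counts were 302 to 803 in WT (median 530.1) and 228 to 673 in Nod2-/- mice (median 409). The highest value was that of WT mouse 5 and the lowest those of Nod2-/- mice 6 and 7, with the other mice interleaved. The log2 fold change was -0.34 (SE 0.25, 95% interval -0.87 to 0.19, edgeR adjusted p = 0.417).

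Creld2 (ENSMUSG00000023272.3, chr15:88819646-88826683), a cysteine-rich ER protein induced by ER stress, had the lowest fitted change of the 10. Its normalized counts in WT mice 1 to 6 were 1303, 833, 767, 1609, 1449 and 814. In Nod2-/- mice 1 to 7 they were 1181, 739, 518, 608, 1077, 511 and 340.1. The groups overlapped, because Nod2-/- mice 1 and 5 lay above WT mice 2, 3 and 6, while the other 5 Nod2-/- mice lay below every WT mouse. Means of 1129 ± 369 (SD, n = 6) in WT and 711 ± 311 (SD, n = 7) in Nod2-/- mice gave a log2 fold change of -0.67 (SE 0.28, 95% interval -1.26 to -0.08). The edgeR p was 0.0295 unadjusted and 0.171 adjusted, and adjusted p ranged from 0.0861 to 0.305 over 23 other fits. A two-sided exact permutation test of log2 CPM gave p = 0.0443, unadjusted, where the smallest possible value was 0.00117. The same test gave p from 0.136 to 0.756 for the other 9 genes.

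Manf (ENSMUSG00000032575.16, chr9:106838312-106891979) encodes a secreted and ER-resident factor that binds BiP. It had 915 to 2195 normalized counts in WT (median 1356) and 639 to 2186 in Nod2-/- mice (median 1543), nearly the same range. The mean was slightly lower and the median higher in Nod2-/- mice, and the log2 fold change of -0.06 (SE 0.26, edgeR adjusted p = 0.912) turned to 0.071 without Nod2-/- mouse 7 (adjusted p = 0.890). Its annotated exons overlap those of Dcaf1, Rbm15b and 4930524O07Rik, so part of its count is uncertain. Edem1 (ENSMUSG00000030104.9, chr6:108828641-108859356) encodes a lectin that passes misfolded glycoproteins to degradation, and it was the steadiest of the 10 genes between mice. Its normalized counts were 2501 to 3153 in WT (median 2984) and 2372 to 3046 in Nod2-/- mice (median 2844). Edem1 had a log2 fold change of -0.07 (SE 0.09, 95% interval -0.26 to 0.12, edgeR adjusted p = 0.658), the narrowest interval of the group.

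Xbp1 (ENSMUSG00000020484.18, chr11:5520659-5525893) is both the transcription factor of the IRE1 arm and one of its own targets. WT mice had 4685 to 6107 normalized counts (median 5366) and Nod2-/- mice 3976 to 6400.3 (median 4386). The Nod2-/- mice fell on both sides of the WT range, with mice 3, 5, 6 and 7 below it and mouse 4 above it. Xbp1 had a log2 fold change of -0.14 (SE 0.13, edgeR adjusted p = 0.517). Counts per gene add the spliced and unspliced forms of Xbp1 mRNA, and the share that is spliced was not analysed here.

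**Figure D1:**
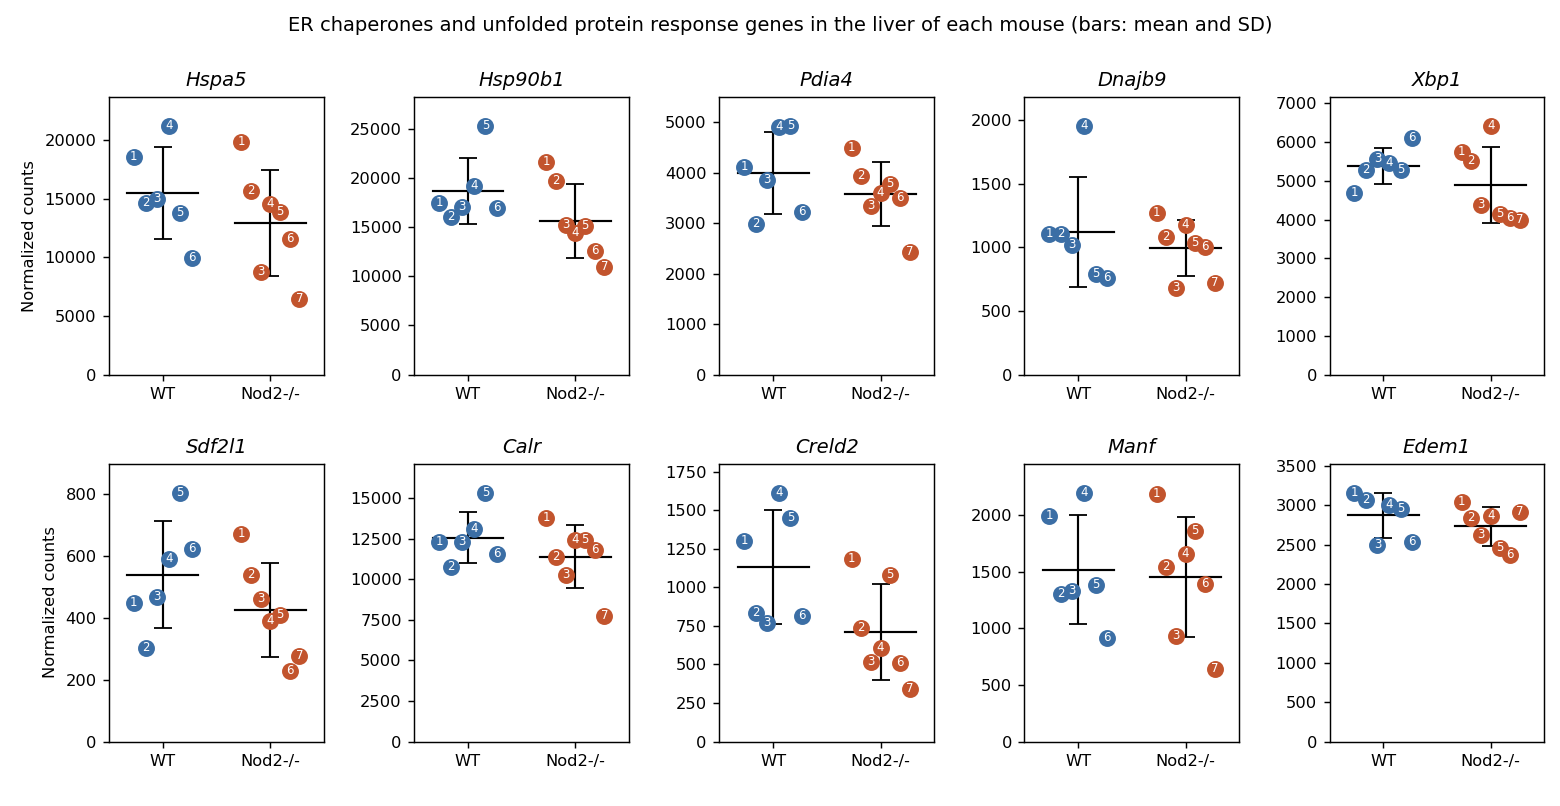
Normalized counts (y axis, from 0) of each of the 10 genes in 6 WT (blue) and 7 Nod2-/- (orange) mice. Each point is 1 mouse with its replicate number, the horizontal line is the mean and the error bar the SD. The genotypes overlap in every panel, the Creld2 means of 1129 and 711 differ most in proportion, and Nod2-/- mouse 7 is the lowest of all 13 mice for 7 of the 10 genes.

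Within each genotype, mice lay farther apart than the genotype means did. From the lowest to the highest of the 13 mice, normalized counts ranged 4.73-fold for Creld2, 3.53-fold for Sdf2l1, 3.43-fold for Manf, 3.30-fold for Hspa5 and 2.86-fold for Dnajb9. The range was 2.31-fold for Hsp90b1, 2.02-fold for Pdia4, 1.98-fold for Calr, 1.61-fold for Xbp1 and 1.33-fold for Edem1. The same few mice held the extremes. WT mouse 4 was the highest of all for 4 genes and WT mouse 5 for 4 others, and Nod2-/- mouse 1 was among the 3 highest for 9 of 10. Nod2-/- mouse 7 was the lowest for 7 genes and among the 3 lowest for 9, the exception being Edem1. Nod2-/- mice 3 and 6 each lay below the median of the 13 mice for 9 of 10 genes.

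**Figure D2:**
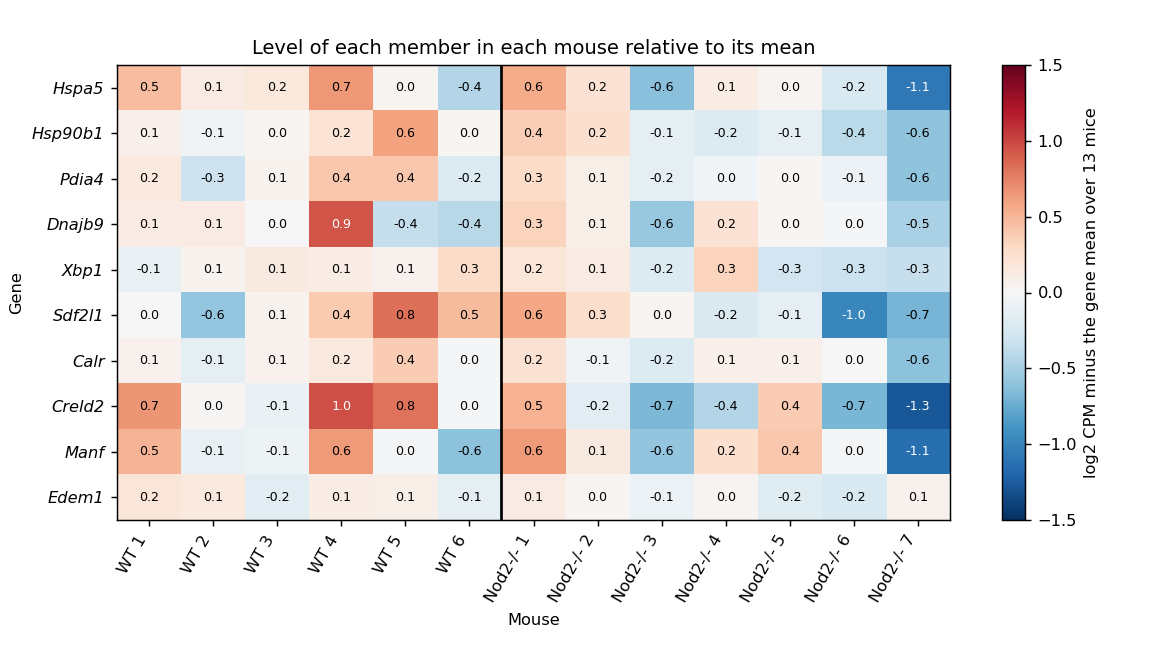
Level of each of the 10 genes (rows) in each of the 13 mice (columns, with WT left of the line) as log2 CPM minus the mean of the gene over the 13 mice. Red is higher and blue lower, and most of a column tends to have 1 color, as in Nod2-/- mouse 7, where 7 of the 10 genes are at their lowest, and Nod2-/- mouse 1, where 9 are among the 3 highest.

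Mouse 7 of the Nod2-/- group also had the highest summed markers of neutrophils and of monocytes and macrophages. The 10 markers of monocytes and macrophages summed to 519 CPM there, against 124 to 251 in WT and 145 to 243 in the other Nod2-/- mice. Its hepatocyte markers, at 134849 CPM, were above the 95143 to 128685 CPM of the WT mice. Without it, log2 fold changes were closer to 0 for most of the 10 genes, among them Hspa5 at -0.14, Hsp90b1 at -0.18 and Creld2 at -0.55 (edgeR adjusted p = 0.738, 0.555 and 0.276). Edem1 moved away from 0, to -0.09, and Manf crossed it. Markers of plasma cells, which are rich in the same ER genes, summed to 255 to 358 CPM in WT and 265 to 453 in Nod2-/- mice. Of the 10 plasma cell markers 8 passed the filter, 1 never had more than 3 counts in a library, and 0 were past 5% FDR. Their part in the levels of the 10 genes was not tested.

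Across the 13 mice, the 10 genes tended to rise and fall together. Each mouse is 1 library in these relations, with 1 scaling factor for all its genes, and 9 pairs with Hspa5 were computed, with two-sided permutation p-values from 100000 resamples adjusted over the 9. Manf followed Hspa5 most closely (Pearson r = 0.95, Spearman rho = 0.81, permutation adjusted p = 0.00018 and 0.00427). Dnajb9 came next (r = 0.84, rho = 0.88), then Creld2 (r = 0.81, rho = 0.65), Pdia4 (r = 0.81, rho = 0.69), Calr (r = 0.76, rho = 0.54) and Hsp90b1 (r = 0.66, rho = 0.64). These 6 passed 5% FDR by Pearson's r, with permutation p from 2e-05 to 0.0141 unadjusted and 0.00018 to 0.0212 adjusted. By Spearman's rho all but Calr did, with adjusted p from 0.00144 to 0.0400, and that of Calr was 0.0903 (permutation). Xbp1 (r = 0.49, rho = 0.43), Sdf2l1 (r = 0.43, rho = 0.36) and Edem1 (r = 0.39, rho = 0.50) passed by neither, with adjusted permutation p from 0.109 to 0.232. The share of all tested genes that would pass with Hspa5 was not computed, so these counts have no background beside them.

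Nod2-/- mice 3 and 7 lay farthest from the median of Hspa5. Without them, over 11 mice, r with Hspa5 was 0.87 for Manf, 0.80 for Dnajb9, 0.65 for Pdia4 and 0.61 for Creld2 (unadjusted permutation p from 0.00055 to 0.0476). It fell to 0.43 for Hsp90b1 and 0.33 for Calr (permutation p = 0.192 and 0.325), with rho of 0.50 and 0.24. Leaving out the mice farthest in Hspa5 narrows its range, which can lower r by itself. These values therefore cannot show whether the relation rested on those 2 mice. For Xbp1 and Sdf2l1, which had not passed over 13 mice, r fell to 0.11 and 0.28, and Edem1 had 0.70 (permutation p = 0.0165). Within genotypes, r of Hspa5 with Manf was 0.98 in 6 WT and 0.97 in 7 Nod2-/- mice, and with Dnajb9 0.86 and 0.93. With Creld2 it was 0.64 in WT and 0.87 in Nod2-/- mice, and with Pdia4 0.58 and 0.95. Hsp90b1 and Calr had an r of only 0.07 and 0.20 in WT, against 0.83 and 0.93 in Nod2-/- mice. With Xbp1 r was -0.66 in WT and 0.70 in Nod2-/- mice, with Sdf2l1 -0.19 and 0.64, and with Edem1 0.63 and 0.17. These differences between genotypes were not tested.

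All 45 pairs of the 10 genes were added after seeing the data. Every r was above 0, with a median of 0.56, and 20 pairs passed 5% FDR by Pearson's r and 13 by Spearman's rho (permutation p adjusted over 45), with Pdia4 and Sdf2l1 just past it at 0.0498. The median r was 0.36 among WT and 0.69 among Nod2-/- mice. Pairs of other genes were not computed, so the counts of pairs have no background beside them either. Among Hspa5, Manf and Dnajb9 r was 0.82 to 0.95, and among Hsp90b1, Sdf2l1, Pdia4, Calr and Creld2 it was 0.64 to 0.90, sets chosen here for their values. Hsp90b1 and Sdf2l1 had r = 0.88 and Pdia4 and Calr r = 0.90. Between the sets r ran from 0.12 for Dnajb9 and Sdf2l1 to 0.81 for Hspa5 and Creld2, so the sets were not separate. The livers with high BiP were not always those with high GRP94: WT mouse 5 was the highest of all for Hsp90b1 and Sdf2l1 but had 13788 normalized counts of Hspa5, below the WT median. Edem1 had r between 0.07 and 0.39 with every other gene.

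**Figure D3:**
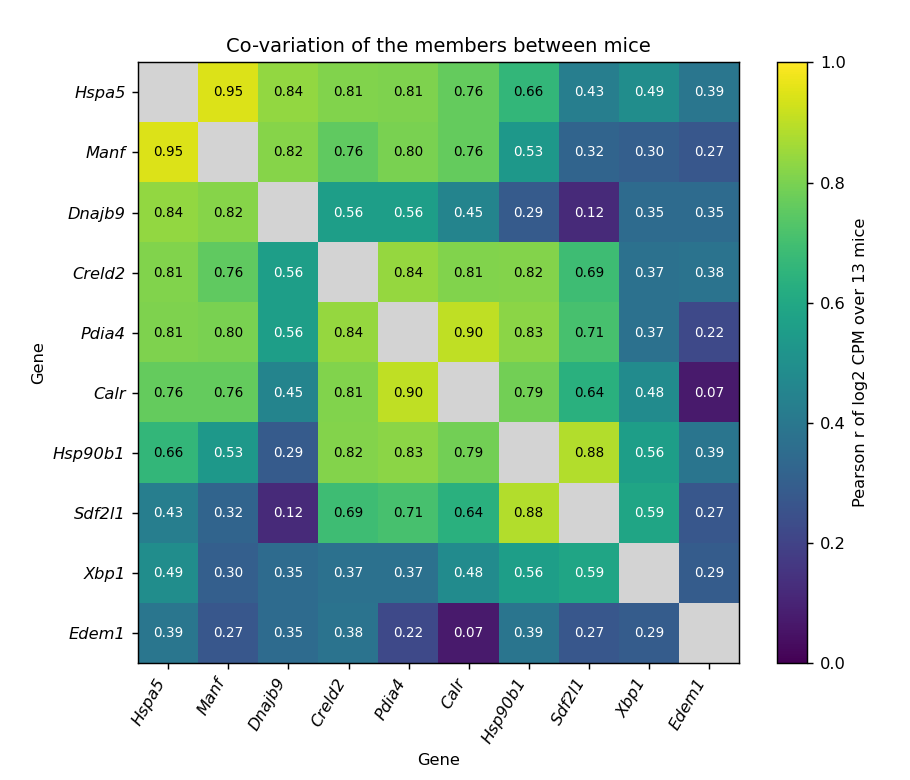
Pearson r of log2 CPM over 13 mice between each pair of the 10 genes (rows and columns, color scale starting at 0, own cells gray). Every value is above 0, the highest is 0.95 for Hspa5 and Manf, and the row of Edem1 stays at or below 0.39.

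The mean of the standardized log2 CPM of the 10 genes was used to find the genes whose pattern over the 13 mice was most like theirs. Among the 5 closest of 13535 other tested genes were Slc35b1 (r = 0.97), Hyou1 (r = 0.94), Nif3l1 (r = 0.93) and Slc33a1 (r = 0.91). Slc35b1 encodes the ATP carrier of the ER membrane, Hyou1 the large ER chaperone GRP170 and Slc33a1 the acetyl-CoA carrier of the ER membrane. Of these 4, 0 differed between genotypes at 5% FDR, with log2 fold changes from -0.45 for Hyou1 to -0.08 for Nif3l1 (edgeR adjusted p from 0.329 to 0.660). Within WT mice r lay between 0.75 and 0.97, and within Nod2-/- mice between 0.93 and 0.98. Over all other tested genes the median r was -0.04, and 1138 of 13535 had r above 0.5.

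Other genes of the pathway came from 7 lists that hold 102 genes, of which 101 passed the filter. At 5% FDR 1 was higher and 1 lower in Nod2-/- mice, 2 of 101 against 1.16% of all genes, and the median log2 fold change was -0.01. The gene that rose was Atf5, a transcription factor translated under stress and counted with the PERK and ATF4 arm. Its normalized counts were 3652, 3312, 3957, 3722, 5074 and 4608 in WT mice 1 to 6. In Nod2-/- mice 1 to 7 they were 7438, 6648, 7029.9, 10368, 7161, 9353 and 9934. The lowest Nod2-/- mouse lay above the highest WT mouse, and the log2 fold change was 1.03 (SE 0.14, 95% interval 0.73 to 1.33, edgeR adjusted p = 0.00244). Atf5 was past 5% FDR in each of 23 other fits.

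The gene that fell was Herpud1, an ER membrane protein of ER-associated degradation and a known target of the unfolded protein response. It had 7056 to 10627 normalized counts in WT (median 8027) and 5046 to 7395 in Nod2-/- mice (median 5673). Only Nod2-/- mouse 5 reached into the WT range. The log2 fold change was -0.55 (SE 0.12, 95% interval -0.81 to -0.28, edgeR adjusted p = 0.0490). Of 13 fits that each left out 1 mouse, 3 kept it past the threshold, those without WT mouse 3, WT mouse 6 or Nod2-/- mouse 5, and adjusted p over the 13 ranged from 0.0191 to 0.131. It was past the threshold in 10 of all 23 other fits, DESeq2 and limma voom among them. Herpud1 lies 5.70 Mb from Nod2 on chromosome 8, so the deletion and linked strain sequence cannot be told apart here either.

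**Figure D4:**
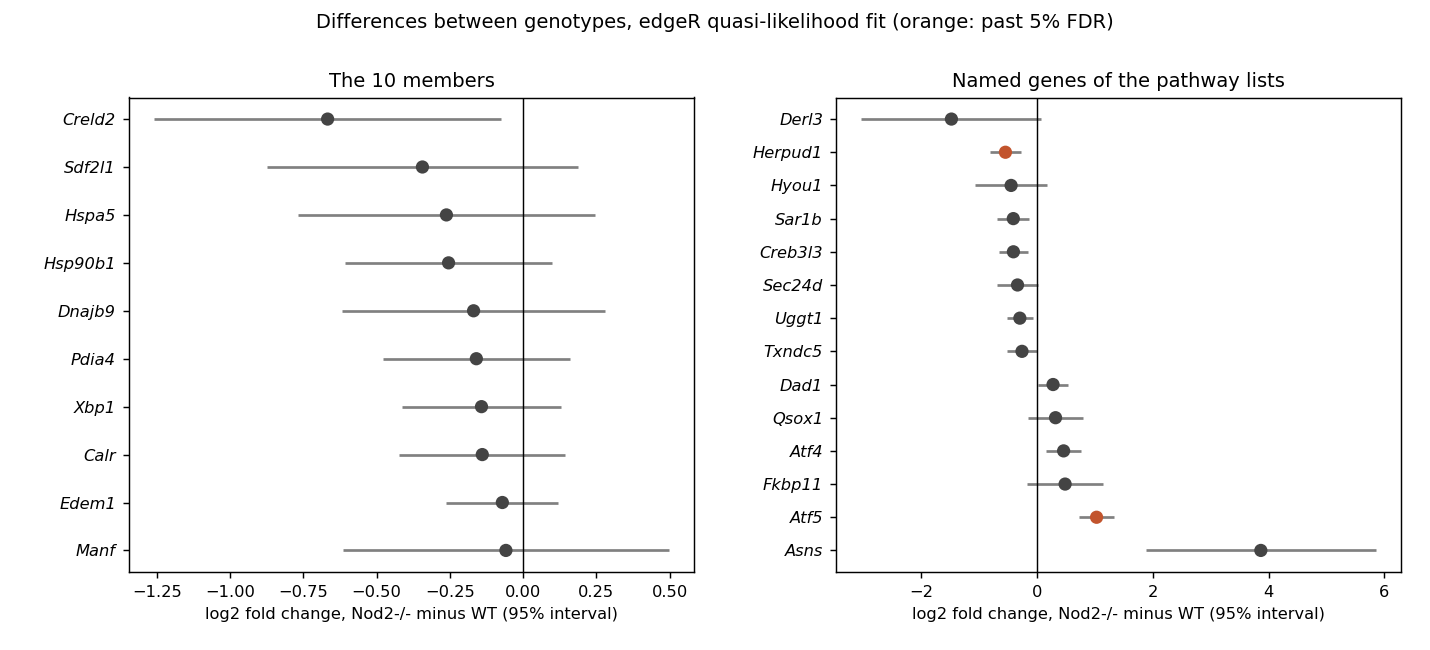
Log2 fold change, Nod2-/- minus WT, with its 95% interval from edgeR for the 10 genes (left) and for 14 named genes of the pathway lists (right), on separate x axes. Points in orange are past 5% FDR, which are Atf5 at 1.03 and Herpud1 at -0.55 on the right and none on the left, where Creld2 at -0.67 has the only interval below 0.

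The sensors and transcription factors had 0 of 10 genes past 5% FDR and a median log2 fold change of -0.02. Values for the sensors themselves were -0.04 for Ern1 (IRE1), -0.15 for Atf6 and 0.01 for Eif2ak3 (PERK), with edgeR adjusted p of 0.908, 0.347 and 0.982. Atf4 had 1301 ± 183 (SD, n = 6) normalized counts in WT and 1789 ± 378 (SD, n = 7) in Nod2-/- mice, a log2 fold change of 0.46 (edgeR adjusted p = 0.0889). Creb3l3, the ER-bound factor of hepatocytes, had a log2 fold change of -0.41 (edgeR adjusted p = 0.0774, or 0.0275 without WT mouse 3), and both DESeq2 and limma voom also called it lower. Of 13 fits that each left out 1 mouse, only that 1 called Creb3l3, and edgeR adjusted p reached 0.174. Without WT mouse 3, calls over all genes rose from 157 to 1156. In the PERK and ATF4 arm 8 of 9 fitted values were above 0 and 1 below, where 47.7% of all genes were below 0. The median was 0.51, with Atf5 alone past the threshold. Genes of 1 arm may vary together, so these directions may not be separate observations. Asns, the asparagine synthetase, had 2.19 to 40.7 normalized counts in WT and 26.4 to 963 in Nod2-/- mice, and its log2 fold change was 3.87 (SE 0.93, edgeR adjusted p = 0.0576). Asns passed in 8 of 22 other fits: DESeq2, limma voom, no filter on low counts, 1 surrogate variable, and those without WT mouse 3, Nod2-/- mouse 1, Nod2-/- mouse 5 or both WT mouse 3 and Nod2-/- mouse 7. Nod2-/- mouse 4 alone held the value of 963, and without it the log2 fold change was 2.47, not past the threshold. Chac1, another target of ATF4, had a log2 fold change of -0.94 (edgeR adjusted p = 0.0673). DESeq2 called Atf4 higher and Chac1 lower, and limma voom called Chac1 alone of these 2.

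Other ER chaperones and co-chaperones had 0 of 15 past 5% FDR and a median log2 fold change of -0.12, with Hyou1 at -0.45 (edgeR adjusted p = 0.369) and Fkbp11 at 0.49 (adjusted p = 0.351). ER disulfide enzymes had 0 of 12 and a median of 0.01, with Txndc5 at -0.26 (adjusted p = 0.212) and Qsox1 at 0.32 (adjusted p = 0.393). In ER-associated degradation Herpud1 was the 1 of 16 past the threshold, the median was -0.04, and Derl3 had -1.48 (SE 0.73, adjusted p = 0.239) with a range of 9.80 to 1004 normalized counts over the 13 mice. The translocon, signal peptidase and N-glycosylation list had 0 of 23, with Dad1 at 0.28 (adjusted p = 0.201) and Uggt1 at -0.30 (adjusted p = 0.122). ER to Golgi transport had 0 of 16, with Sar1b at -0.41 (adjusted p = 0.0932, or 0.0296 without WT mouse 3, and also called by DESeq2 and limma voom) and Sec24d at -0.34 (adjusted p = 0.248). Sar1b was past the threshold in 1 of 13 fits that each left out 1 mouse, and edgeR adjusted p reached 0.219.

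Several genes of these lists followed the 10 genes between mice. Beside Hyou1, the calnexin gene Canx and the disulfide isomerase gene Pdia6 (r = 0.87 each), Syvn1 (r = 0.83), Lman1 (r = 0.81) and Dnajb11 (r = 0.81) had the highest r with the mean of the 10 genes. An r above 0.5 was found for 5 of 15 other chaperones, 4 of 12 disulfide enzymes, 5 of 16 degradation genes, 8 of 23 of the translocon list and 7 of 16 transport genes. The count was 2 of 10 for sensors and transcription factors, and 1138 of 13535 for all other tested genes. Such an r was found for 0 of 9 genes of the PERK and ATF4 arm, whose highest r was 0.25. It was not particular to ER genes, as 5 of 10 cytosolic heat shock genes and 3 of 10 mitochondrial chaperones and proteases had it. So did 1 of 10 genes of the fed or fasted state and 0 of 6 substrates of IRE1 mRNA decay.

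Chaperones of other compartments were compared by the same fit, in which 47.7% of all genes had values below 0. Here too, the directions within a list may not be separate observations. Of 10 cytosolic heat shock genes 0 were past 5% FDR and 9 had fitted values below 0, with a median log2 fold change of -0.32, Hsph1 at -0.58 (edgeR adjusted p = 0.297) and Hspb1 at -0.55 (adjusted p = 0.531). Their r with the mean of the 10 ER genes lay between 0.41 and 0.75. Of 10 mitochondrial chaperones and proteases 0 were past the threshold and 10 had fitted values below 0, with a median of -0.20, Hspd1 at -0.43 (adjusted p = 0.0673, or 0.0269 without WT mouse 3) and Trap1 at -0.39 (adjusted p = 0.0988, or 0.0461 without WT mouse 3). Each was past the threshold in 1 of 13 fits that left out 1 mouse. Over these fits edgeR adjusted p reached 0.164 for Hspd1 and 0.222 for Trap1. Known substrates of IRE1 mRNA decay had 0 of 6 past the threshold and a median of 0.09, with Scara3 at 0.55 and Col6a1 at -0.43 (adjusted p = 0.321 and 0.352). Genes that follow the fed or fasted state had 0 of 10 past the threshold and a median of -0.20. Among them Pnpla3 stood at 2.26 (adjusted p = 0.129, or 0.0174 without WT mouse 3) and Igfbp1 at 1.11 (adjusted p = 0.395). Pnpla3 was past the threshold in 1 of 13 fits that each left out 1 mouse, and edgeR adjusted p reached 0.233. The time of feeding before the livers were taken is not given in the sources used here, and its part in the levels of the 10 genes was not tested.

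**Figure D5:**
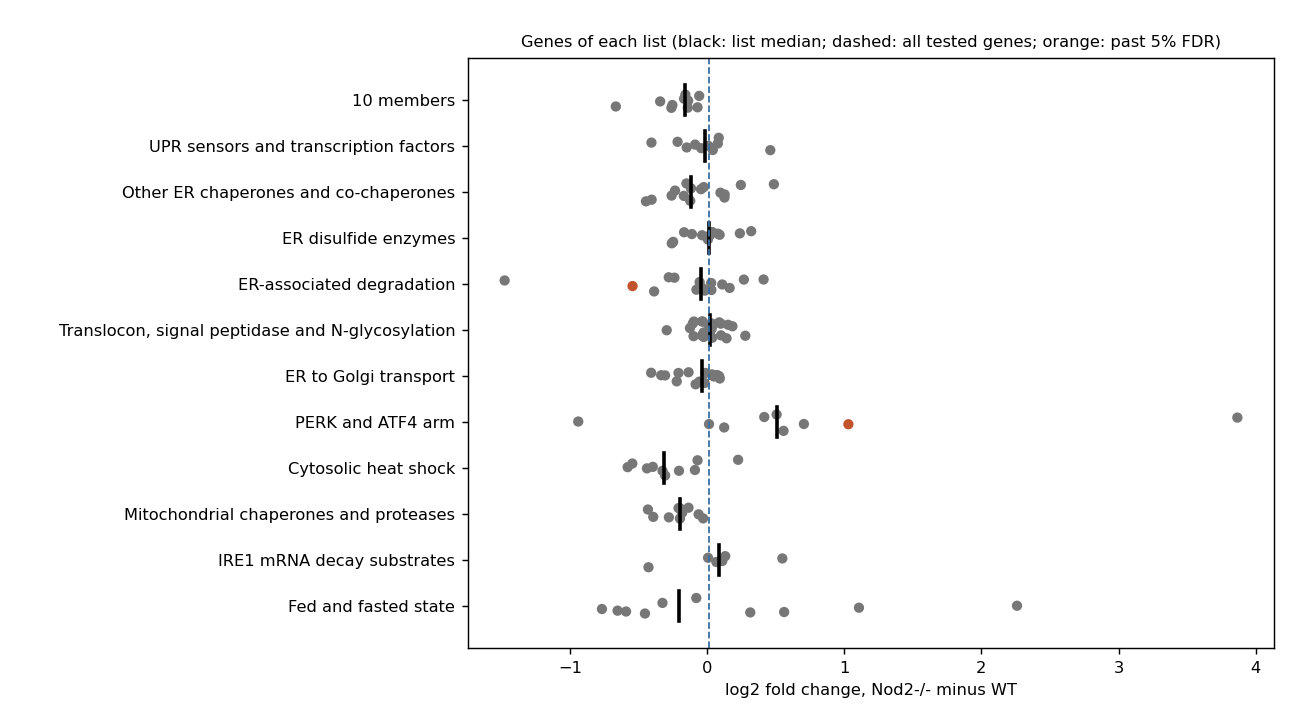
Log2 fold change, Nod2-/- minus WT (x axis), of each tested gene of the 10 members and 11 other lists (rows). Black bars are list medians, the dashed line is the median of all tested genes at 0.016, and orange points, Atf5 and Herpud1, are past 5% FDR. The 10 members have a median of -0.16 and the PERK and ATF4 arm 0.51.

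Markers of other cell types were summed in each mouse, and their part in the results above was not tested. The 9 tested markers of liver tumors all had fitted values above 0, with 0 past 5% FDR, and the listed markers summed to 41.7 to 619 CPM in WT and 180.1 to 903 in Nod2-/- mice. WT mouse 3 alone held the 619 CPM, and the next WT mouse had 197. The same mouse had the highest WT sum in each of the other lists given below. Bile duct markers summed to 68.4 to 239 CPM and 125 to 423 CPM, with 1 of 9 past the threshold and 4 of 9 fitted below 0. Stellate cell and fibroblast markers summed to 219 to 333 and 242 to 330.1 CPM, with 1 of 10 past it and 5 of 10 fitted below 0. Over all genes 1.16% were past the threshold and 47.7% were fitted below 0. Markers of sinusoidal endothelial cells summed to 277 to 378 CPM in WT and 296 to 366 in Nod2-/- mice, with 0 of 10 past the threshold and 2 of 10 fitted below 0. Those of T cells summed to 4.10 to 6.27 and 3.02 to 11.9 CPM. Only 2 of the 10 T cell markers passed the filter on low counts, with 0 past the threshold and 0 fitted below 0.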

How the data were processed

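Liver RNA of 6 WT and 7 Nod2-/- mice was sequenced, 1 library per mouse, as stranded paired-end libraries of polyadenylated RNA. Per the submitters' notes, the authors used Trimmomatic 0.33 for trimming and TopHat2 2.1.1 for mapping to GRCm38, and they deposited unnormalized whole-number counts per gene. The counting program and its use of strand and of reads with several map positions are not given in the sources used here. An entry without an identifier was left out. Positions and exon lengths come from GENCODE release 21 of GRCm38, and promoters from RefSeq. Groups come from the sample labels.

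The filterByExpr function of edgeR 4.0.16 (R 4.3.3) left 13545 genes that hold 99.9% of all reads. They were tested two-sided by glmQLFit and glmQLFTest after TMM scaling, adjusted by Benjamini-Hochberg at 5% FDR, and intervals are 95%. Log2 CPM used a prior count of 2. Permutation tests were exact over 1716 splits of the mice or used 100000 resamples. Scripts were tested on simulated data.

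The 10 genes and all lists were chosen with earlier results of these data known. The named genes are the 10, those of the 7 pathway lists past 5% FDR or with the 2 largest absolute changes of their list, the 2 largest changes of 4 further lists, and the 5 genes most like the 10, of which 1 is not reported here. Ern1, Atf6, Eif2ak3, Chac1, Canx, Pdia6, Syvn1, Lman1 and Dnajb11 were named after their values were seen. Alternatives were DESeq2 1.42.0 (the tool of the paper), limma 3.58.1, RLE factors, other filters, the replicate block, a robust fit, 1 surrogate variable (sva 3.50.0), removing the 20 most abundant genes and leaving out mice.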

Additional observations from a re-analysis of the deposited data

Results flagged for a closer look

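Of the 32 genes named by rule that are members or belong to the pathway and comparison lists, 9 values in 64 groups of mice stood apart by Dixon's test at the 95% level, which chance alone gives in about 1 of 20 groups. Among the 10 ER genes, Hsp90b1 had 25242 normalized counts in WT replicate 5, against 19162 in the next WT mouse, and Dnajb9 had 1950.4 in WT replicate 4, against 1104 in the next. The other 7 values were in genes of the lists. Creb3l3 had 7320.4 in WT replicate 3, the lowest of its group, where the next was 9421. Herpud1 had 7395 in Nod2-/- replicate 5, where the next highest was 5905. Sec24d had 905 in WT replicate 6, where the next lowest was 1379. Asns had 40.7 in WT replicate 3, next to 13.9, and 963 in Nod2-/- replicate 4, next to 126. Pnpla3 had 95.8 in WT replicate 3, next to 14.4, and Igfbp1 had 12567 in Nod2-/- replicate 4, next to 3471.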

How the results depend on the processing

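In each of 23 alternatives 0 of the 10 ER genes were past 5% FDR in either direction, with adjusted p no lower than 0.0861, while calls over all genes ranged from 35 with the replicate block to 1212 by DESeq2, and were 1156 without WT replicate 3, against 157. The median log2 fold change of the 10 genes stayed between -0.24 and -0.10. Of 230 refitted values 7 were above 0. Manf had 0.083 with the replicate block, 0.035 without WT replicate 3 and Nod2-/- replicate 7, and from -0.19 to 0.074 in fits that left out 1 mouse, above 0 without WT replicate 1 (0.033), WT replicate 4 (0.074), Nod2-/- replicate 3 (0.025) or Nod2-/- replicate 7 (0.071). Dnajb9 had from -0.26 to 0.061 in these fits, above 0 without WT replicate 4 only. None of the 7 was past the threshold.

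Of the other pathway genes, 1 higher and 1 lower by edgeR, DESeq2 called 4 higher and 5 lower, limma voom 2 and 4, no filter on low counts 2 and 0, the replicate block 1 and 0, a robust fit 1 and 0, 1 surrogate variable 4 and 4, and the fit without WT replicate 3 and Nod2-/- replicate 7, added after seeing the data, 2 and 1. Fits that each left out 1 mouse gave 1 to 2 higher and 0 to 4 lower, and the cause was not tested. Replicate numbers showed no pairing in the expression values: same-number correlations of deviations ranged from -0.302 to 0.304, and 0 of 6 WT mice correlated best with their own number. Such correlations cannot show whether mice of the same number shared a cage, day or batch. The median r with Hspa5 was 0.76 by Pearson, 0.64 by Spearman and 0.61 without the 2 mice farthest from the median.

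With 6 and 7 mice, the 95% intervals of the 10 genes spanned fold changes as low as 0.418 (Creld2) and as high as 1.41 (Manf). Each of the 10 genes had at least 200 counts in every mouse. Exon overlaps leave Hsp90b1 and Manf partly uncertain.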
